A study of Mus musculus with 2 samples.

Results

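The cells described here are the T cells without CD8 transcripts in subcutaneous CMT167R tumours of the mouse, a set that takes in the regulatory T cells. They were selected from the counts themselves. A barcode was a member when it had at least 500 detected genes and at most 20% mitochondrial UMIs (unique molecular identifiers, each standing for 1 captured RNA molecule), at least 3 UMIs summed over Cd3d, Cd3e, Cd3g, Trac and Trbc2, C1qa, C1qb and C1qc together under 0.3% of UMIs, Lyz2 under 0.2%, and 0 UMIs of Cd8a and of Cd8b1. The rule found 154 members among 13590 barcodes that passed the gene and mitochondrial limits, 63 of 6380 in the control library and 91 of 7210 in the PKCi library.

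CMT167 is a mouse lung carcinoma line, and CMT167R cells are labelled as resistant to anti-PD1. They were injected under the skin of wild-type C57BL/6 mice, which then received either solvent (control) or a daily intraperitoneal dose of 3 mg/kg of an agent that the labels call PKCi, and tumours were taken when control tumours had reached 400 mm3. Each treatment is represented by 1 library, and the number and age of the mice behind a library are not in the labels used here. The study's title concerns PKC signalling coordinated by XIAP, a ubiquitin ligase of the inhibitor of apoptosis family. Both libraries therefore share the graft, the host strain and the site, and differ by the treatment and by everything else that separates 1 library from another; no test between treatments is possible, and the 95% intervals reflect the error of counting alone.

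T cells sense antigen through a receptor built of TCR chains and the CD3 subunits. CD4 marks helper and regulatory T cells and CD8 marks cytotoxic T cells. Regulatory T cells restrain other lymphocytes: the transcription factor FOXP3 sets their programme, HELIOS (Ikzf2) is a partner factor in many of them, and in tumours they often carry high levels of CTLA4, ICOS, CD25 (Il2ra) and receptors of the TNF family such as OX40 (Tnfrsf4), GITR (Tnfrsf18) and 4-1BB (Tnfrsf9). Downstream of the T cell receptor, diacylglycerol activates PKC-theta (Prkcq) and RASGRP1, which lead to NF-kB and, through the MAP kinases, to AP-1. In the GRCm38 assembly Foxp3 lies on chromosome X at 7573644-7595245 on the plus strand, Ikzf2 on chromosome 1 at 69531214-69687245 on the minus strand and Cd4 on chromosome 6 at 124864692-124888221 on the minus strand.

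The libraries held 6688 and 7457 barcodes and 222641855 and 229219749 UMIs, and the kept barcodes had median depths of 33217 and 29763 UMIs. Of the kept barcodes, 90 control and 145 PKCi barcodes reached 3 CD3/TCR UMIs, the myeloid limits removed 1 and 3 of them, and 26 and 51 carried Cd8a or Cd8b1 UMIs. Members were shallower than the rest, with medians of 5369 and 4484 UMIs and ranges of 877 to 78517 and 656 to 77190. At the edge of the rule, 4 and 12 members had exactly 3 CD3/TCR UMIs, 11 and 13 kept barcodes met every other condition with 2, and 5 and 7 of the CD8-bearing barcodes had only 1 Cd8 UMI. The libraries shared 20 barcode sequences, none of them among the members.

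The label held for most members and not for all. Markers of other cells were concentrated in particular barcodes, so the members were divided after seeing the data, first by at least 3 UMIs of Tyrobp, an adaptor of natural killer and myeloid receptors, and then by at least 3 UMIs summed over Krt8, Rhox5 and Col3a1, which stand for keratin-bearing carcinoma cells and for collagen-producing fibroblasts. The remaining members, called the core here, numbered 38 in the control library and 64 in the PKCi library, with medians of 4149 and 3477 UMIs. Every core cell had a Cd3d, Cd3e or Cd3g UMI. Since the rule chose on CD3 and TCR genes, the label was read from T cell genes outside it. Cd247, Lck, Zap70, Cd28 and Thy1 summed to 1244 and 1207 CPM (counts per 1000000 UMIs) in the core, with a UMI in 37 of 38 and 58 of 64 cells. They summed to 1087 CPM in the CD8 T core of both libraries, to 3.86 and 3.97 CPM in barcodes of a myeloid gate and to 0.885 and 1.04 CPM in barcodes of a carcinoma gate.

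The Tyrobp-bearing barcodes numbered 16 and 14 and were deeper, at medians of 17388 and 12407 UMIs. Ncr1, the natural killer receptor NKp46, was detected in 12 and 11 of them, Gzmb in 16 and 13, and the constant chain gene Trbc1 in 16 and 12, while 11 and 9 had no Cd3d, Cd3e or Cd3g UMI. Cd4 and Foxp3 were detected in none of the 16 and none of the 14. They are called by these genes here, because a barcode with TCR constant-chain RNA and natural killer genes fits more than 1 cell type. An 11-gene natural killer list summed to 10435 and 4315 CPM in them, and to 65.5 and 158 CPM in the core. The list includes Tyrobp, so part of this contrast was set by the division. Over all members Tyrobp gave 475 of the list's 3434 UMIs in the control and 203 of 1057 in the PKCi library. In the core Ncr1 and Klra8 were at 0 in both libraries, and Klrb1c, Klre1 and Gzma in the control library only.

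The barcodes with Krt8, Rhox5 or Col3a1 UMIs numbered 9 and 13, with medians of 39915 and 33610 UMIs, close to the medians of 39287 and 37130.5 in the carcinoma gate. Sparc, a matrix gene of the carcinoma list that took no part in the division, was at 623 and 99.8 CPM in them, at 10.9 and 24.3 CPM in the core and at 143 and 128 CPM in the carcinoma gate. The 6-gene carcinoma list as a whole summed to 3815 and 2479 CPM in the core, 7539 and 7802 CPM in the carcinoma gate and 5341 and 4171 CPM in the myeloid gate. It also holds Vim and Lgals1, which lymphocytes express, and Krt18 was at 0 in the core of both libraries. Cd3e was detected in 6 and 7 of these barcodes and Foxp3 in 3 and 5. Scrublet called 1.74% and 1.83% of kept barcodes as doublets, among them 4 and 8 members, 4 and 7 of them in this class and none in the core.

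Because they were deep, the barcodes outside the core carried most of the RNA. The core gave 22.5% and 26.3% of the members' UMIs, the Tyrobp-bearing barcodes 40% and 24.7%, and those with Krt8, Rhox5 or Col3a1 UMIs 37.6% and 49%. Values for the members as a whole are therefore given below beside values for the core. Marker lists of other cell types gave mixed levels in the core. The 5-gene CD8 T list, in which the rule holds Cd8a and Cd8b1 at 0, summed to 1190 and 2374 CPM in the core. It summed to 2904 and 3183 CPM in CD8 T cells. A shallow CD8 T cell can lack a Cd8 UMI, and how many core cells are of this kind was not tested. The 6-gene B and plasma cell list summed to 114.6 and 64.8 CPM against 13.4 and 11.4 CPM in the myeloid gate, all of it Ighm and Cd79b, while Cd79a, Ms4a1 and Jchain were at 0. The innate lymphoid list, which shares Il1rl1, Gata3, Rora, Il7r and Areg with helper and regulatory T cells, summed to 3084 and 2459 CPM with Il13 and Il5 at 0. The dendritic list summed to 545.8 and 372.7 CPM with Xcr1, Clec9a, Cd209a and Siglech at 0 in both libraries. The 10-gene macrophage list, in which the rule caps the C1q genes and Lyz2, summed to 447.6 and 368.7 CPM. Adgre1 and Fcgr1 were at 0 in both libraries and the C1q genes in the control library only. The list also holds Ccr2, whose counts in the core are given below. The neutrophil list summed to 71.0 and 8.10 CPM. The fibroblast list, whose Col3a1 was limited by the division, summed to 16.4 and 8.10 CPM. Gamma delta T cell RNA was low, with Trdc in 2 and 0 core cells and Tcrg-C1 in 0 and 4.

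**Figure D1:**
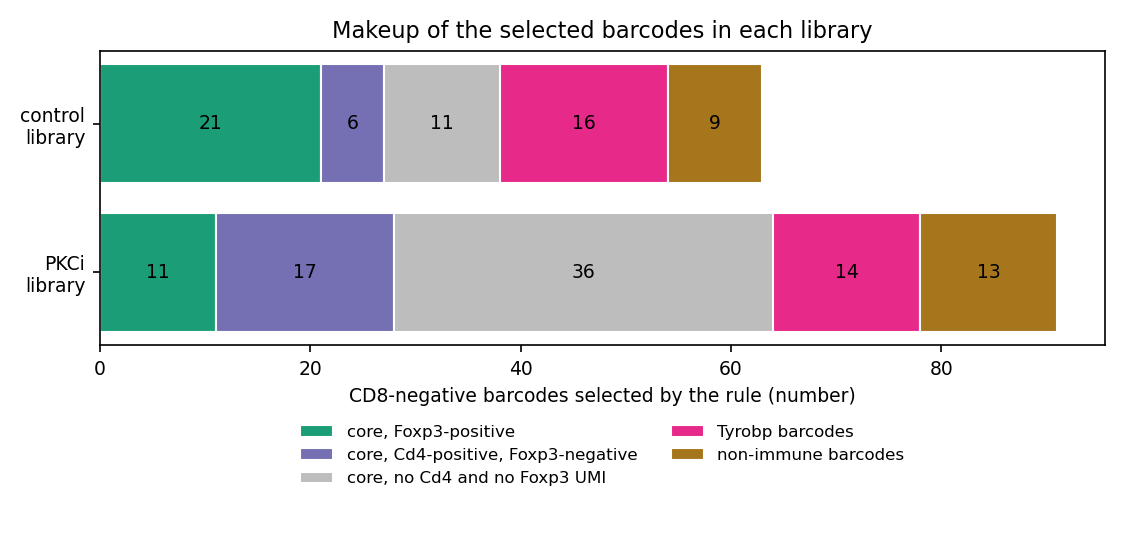
Number of selected CD8-negative barcodes (horizontal axis) in each library, stacked by class: core with Foxp3 UMIs, core with Cd4 but no Foxp3 UMIs, core with neither, Tyrobp-bearing barcodes, and barcodes with Krt8, Rhox5 or Col3a1 UMIs. The control library has 21, 6, 11, 16 and 9 and the PKCi library 11, 17, 36, 14 and 13.

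CD8-negative T cells were 0.988% (0.760% to 1.26%) of kept barcodes in the control library and 1.26% (1.02% to 1.55%) in the PKCi library, with a ratio of 1.28 (0.917 to 1.79). The core alone was 0.596% and 0.888%, a ratio of 1.49 (0.982 to 2.29). Both intervals include 1. CD8 T cells, chosen by the same rule with at least 1 Cd8a or Cd8b1 UMI, were 0.408% and 0.707% of kept barcodes, a ratio of 1.74 (1.06 to 2.90). Of all T cells so chosen, 63 of 89 (70.8%) were CD8-negative in the control library and 91 of 142 (64.1%) in the PKCi library, and within the core 38 of 60 (63.3%) and 64 of 108 (59.3%).

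Foxp3 transcripts were found in a smaller share of these cells in the PKCi library. Of the members, 24 of 63 (38.1%, 26.2% to 51.2%) had a Foxp3 UMI in the control library and 16 of 91 (17.6%, 10.4% to 27.0%) in the PKCi library, with a ratio of shares of 0.462 (0.229 to 0.906). In the core the counts were 21 of 38 (55.3%, 38.3% to 71.4%) and 11 of 64 (17.2%, 8.91% to 28.7%), a ratio of 0.311 (0.135 to 0.675). Intervals for the core shares did not overlap. Depth differed between the libraries, so each cell was also thinned to 3000 UMIs, which leaves out shallower cells. The thinned shares were 16 of 54 (29.6%) and 7 of 64 (10.9%) over all members and 16 of 29 (55.2%) and 6 of 37 (16.2%) in the core, with ratios of 0.369 (0.128 to 0.948) and 0.294 (0.0942 to 0.791). Thinning did not change who is in the core, which was cut at fixed UMI counts that deep barcodes reach more easily. The barcodes left out for Krt8, Rhox5 or Col3a1 UMIs had Foxp3 in 3 of 9 and 5 of 13. Among them was a PKCi barcode of 30019 UMIs with 11 Foxp3 UMIs, the most of any member, and 2 Krt8 and 1 Rhox5 UMIs.

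The background of Foxp3 was low. In the carcinoma gate 6 of 4319 (0.139%) and 13 of 4598 (0.283%) barcodes had a Foxp3 UMI, at median depths of 39287 and 37130.5 UMIs. In the myeloid gate it was 2 of 681 (0.294%) and 0 of 1074, which allows a share of up to 0.279%, at medians of 9376 and 9413.5 UMIs. Among CD8 T cells 2 of 26 (7.69%) and 2 of 51 (3.92%) had a Foxp3 UMI. All of these lie below the members' shares of 38.1% and 17.6%.

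Measured against all kept barcodes, Foxp3-positive core cells were 0.329% (0.204% to 0.503%) in the control library and 0.153% (0.0762% to 0.273%) in the PKCi library, with a ratio of 0.464 (0.202 to 1.01). Foxp3-negative core cells were 0.267% and 0.735%, a ratio of 2.76 (1.57 to 5.08). The lower Foxp3-positive share within the core thus went with 17 Foxp3-negative core cells in the control library and 53 in the PKCi library. Read against cytotoxic cells, CD8 T cells were 26 of 50 (52%) of the CD8 T and Foxp3-positive members together in the control library and 51 of 67 (76.1%) in the PKCi library. The ratio of these 2 shares was 1.46 (0.896 to 2.45), an interval that includes 1. Each count comes from 1 library, and a difference between treatments cannot be told apart from a difference between tumours, mice or dissociations.

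The shares of Cd4-positive cells did not differ beyond counting error. A Cd4 UMI was present in 23 of 63 members (36.5%, 24.7% to 49.6%) of the control library and in 27 of 91 (29.7%, 20.6% to 40.2%) of the PKCi library, with a ratio of 0.813 (0.449 to 1.48). In the core it was 16 of 38 (42.1%) and 22 of 64 (34.4%). After thinning the order turned, to 10 of 54 (18.5%) and 14 of 64 (21.9%), a ratio of 1.18 (0.488 to 2.97). Cd4 RNA was sparse, with 1 to 3 UMIs in a positive core cell of the control library and up to 6 in the PKCi library, so a core cell with no Cd4 UMI cannot be taken to lack CD4. The background was 4 (0.0926%) and 15 (0.326%) barcodes of the carcinoma gate and 10 (1.47%) and 27 (2.51%) of the myeloid gate.

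Ikzf2 was the most widely detected of the 3 genes. It was present in 48 of 63 members (76.2%, 63.8% to 86.0%) and 45 of 91 (49.5%, 38.8% to 60.1%), a ratio of 0.649 (0.422 to 0.996), and in 31 of 38 (81.6%) and 33 of 64 (51.6%) core cells, a ratio of 0.632 (0.375 to 1.07). Thinned to 3000 UMIs the members' shares were 36 of 54 (66.7%) and 24 of 64 (37.5%). CD8 T cells had Ikzf2 UMIs in 57.7% and 68.6%, so Ikzf2 was not confined to CD8-negative cells. The carcinoma gate gave 2.99% and 3.61% and the myeloid gate 2.94% and 3.72%.

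**Figure D2:**
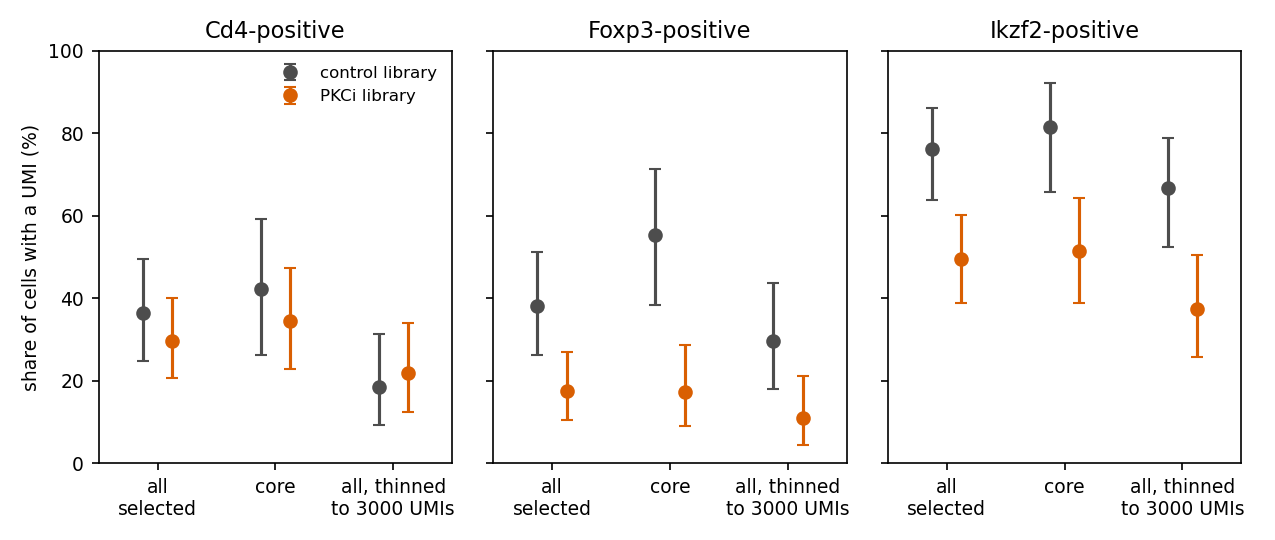
Share of cells (percent, vertical axis) with at least 1 UMI of Cd4, Foxp3 or Ikzf2 in the control and PKCi libraries, for all selected cells, the core, and all selected cells thinned to 3000 UMIs; bars are exact 95% binomial intervals. The core's Foxp3 shares of 55.3% and 17.2% have bars that lie apart, while the Cd4 shares of 42.1% and 34.4% have overlapping bars.

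Ikzf2 was more abundant in Foxp3-positive cells. All 21 Foxp3-positive core cells of the control library and all 11 of the PKCi library had Ikzf2 UMIs, from 2 to 79 with a median of 14 in the control library and from 3 to 50 with a median of 6 in the PKCi library. Among Foxp3-negative core cells, 10 of 17 and 22 of 53 had any, with medians of 1 and 0 and highest values of 12 and 30. The groups overlapped, since some Foxp3-negative cells reached as many Ikzf2 UMIs as Foxp3-positive ones. Foxp3 itself was sparse, with 1 to 8 UMIs in positive control cells and 1 to 7 in positive PKCi cells and a median of 2 in both, so a shallow regulatory cell can be missed.

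Taking the 3 genes together, Cd4, Foxp3 and Ikzf2 were all detected in 10 core cells of the control library and 5 of the PKCi library, and Foxp3 with Ikzf2 but no Cd4 UMI in 11 and 6. Cd4 without Foxp3 was found in 6 and 17 cells, of which 2 and 5 also had Ikzf2. Ikzf2 alone was found in 8 and 17. None of the 3 was detected in 3 of 38 control cells (7.89%) and 19 of 64 PKCi cells (29.7%), a ratio of 3.76 (1.11 to 19.8).

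**Figure D3:**
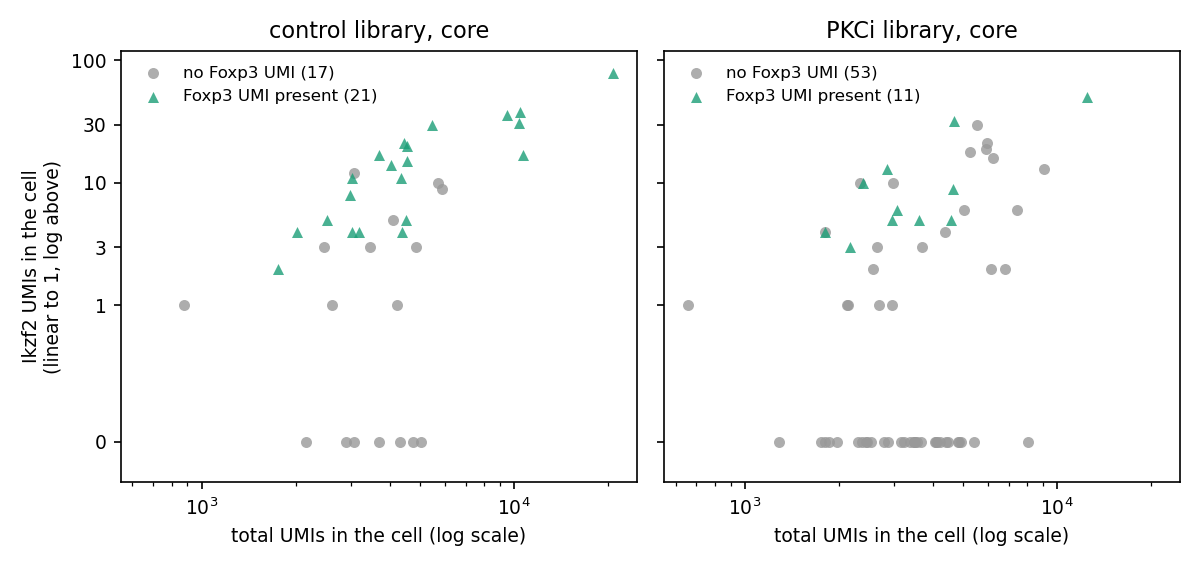
Each point is 1 core cell, with its total UMIs (log scale, horizontal) and its Ikzf2 UMIs (vertical, linear to 1 and log above), coloured by whether it has a Foxp3 UMI, in the control library (21 positive, 17 negative) and the PKCi library (11 positive, 53 negative). Every Foxp3-positive cell has at least 2 Ikzf2 UMIs, while 7 of 17 and 31 of 53 Foxp3-negative cells lie at 0.

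Foxp3-positive core cells held more RNA of regulatory T genes and less RNA of resting T cell genes than Foxp3-negative ones, in both libraries. A gene was counted when it had at least 20 UMIs over the 4 sums compared, at least 50 CPM in 1 of them, and differed at least 2-fold in the same direction in both libraries. Of 3633 genes, 204 (5.62%) were higher and 121 (3.33%) lower in Foxp3-positive cells. Over all members, Tyrobp-bearing barcodes included, 196 of 4757 genes (4.12%) were higher and 144 (3.03%) lower. Foxp3-positive cells had median depths of 4377 and 3070 UMIs and Foxp3-negative cells 3697 and 3487. In total the core sets held 120128 UMIs in Foxp3-positive and 63080 in Foxp3-negative cells of the control library. In the PKCi library they held 45144 and 201698. UMI counts given below as 1 set against the other are not scaled to these totals.

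Of 25 regulatory T genes measured beside Foxp3 itself, 11 were higher in Foxp3-positive core cells and none lower. Among all genes compared 5.62% were higher and 3.33% lower. Ikzf2 stood at 3130 CPM in Foxp3-positive and 761 CPM in Foxp3-negative cells of the control library, and at 3145 and 863 CPM in the PKCi library. Ctla4, the inhibitory receptor that captures CD80 and CD86, stood at 1740 and 555 CPM in the control library and at 1396 and 347 CPM in the PKCi library. Tnfrsf9 was higher by 1.72 (log2) in the control and 1.98 in the PKCi library, Tnfrsf4 by 1.75 and 1.41, Tnfrsf18 by 1.58 and 1.21, and Il2ra, the high-affinity IL-2 receptor chain, by 1.55 and 1.01. Prdm1 (1.46 and 2.98), Ikzf4 (1.79 and 1.24) and Ebi3, a subunit of IL-35 (1.22 and 2.81), completed the group with the next 2 genes. Areg encodes amphiregulin, a growth factor made by tissue-repair regulatory T cells, and had 193 UMIs in Foxp3-positive against 15 in Foxp3-negative cells of the control library and 59 against 43 in the PKCi library. Klrg1, a receptor of terminally differentiated lymphocytes, had 39 UMIs against 0 and 9 against 3.

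Beyond the list, the genes with the largest smaller-of-both change included Frmd5, with 54 UMIs against 0 in the control and 24 against 4 in the PKCi library. Neb (16 against 0 and 7 against 1), Ankrd6 (15 against 0 and 9 against 2), Ntng2 (14 against 0 and 8 against 2) and Gpr55 (28 against 1 and 4 against 1) rest on fewer UMIs. Itgb8 is the integrin chain that activates latent TGF-beta, and it had 26 against 2 and 18 against 9, the PKCi counts from totals of 45144 and 201698 UMIs. Tox, a factor of chronically stimulated T cells, was higher by 2.25 and 1.24 (log2), and Gzmb, a granzyme, by 2.82 and 1.49.

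Genes of resting and recirculating T cells were lower in the Foxp3-positive cells. Of 9 measured, 5 were lower and none higher: S1pr1, Lef1, Bach2, Foxp1 and Tcf7. Among all genes compared 3.33% were lower. Tcf7, the stem-like factor TCF1, had 1 UMI in Foxp3-positive against 17 in Foxp3-negative cells of the control library and 0 against 20 in the PKCi library. The PKCi counts here come from totals of 45144 and 201698 UMIs, so the larger set raises the second count of each pair. Bach2 had 6 against 32 and 5 against 91. The anti-apoptotic gene Bcl2 had 1 against 31 and 0 against 90, and 2 ligands of the TNF family, Tnfsf8 (CD30 ligand) and Tnfsf11 (RANKL), had 0 against 24 and 1 against 29 in the control library and 0 against 70 and 0 against 49 in the PKCi library.

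Prkcq, which encodes PKC-theta, was also among the lower genes, with 1 UMI in Foxp3-positive against 10 in Foxp3-negative cells of the control library and 1 against 31 in the PKCi library. The natural killer receptor genes Klrd1 (0 against 14 and 0 against 25) and Klrk1 (0 against 4 and 0 against 27) were lower too. Of 17 immediate early genes, which are transcribed within minutes of stimulation, 4 were lower and none higher (Btg2, Dusp2, Fosb and Egr1), and of 10 heat shock genes 5 were lower. Among all genes compared 3.33% were lower. Fosb had 7 UMIs in Foxp3-positive against 31 in Foxp3-negative cells of the control library and 10 against 110 in the PKCi library. None of 14 genes of the NF-kB list differed.

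**Figure D4:**
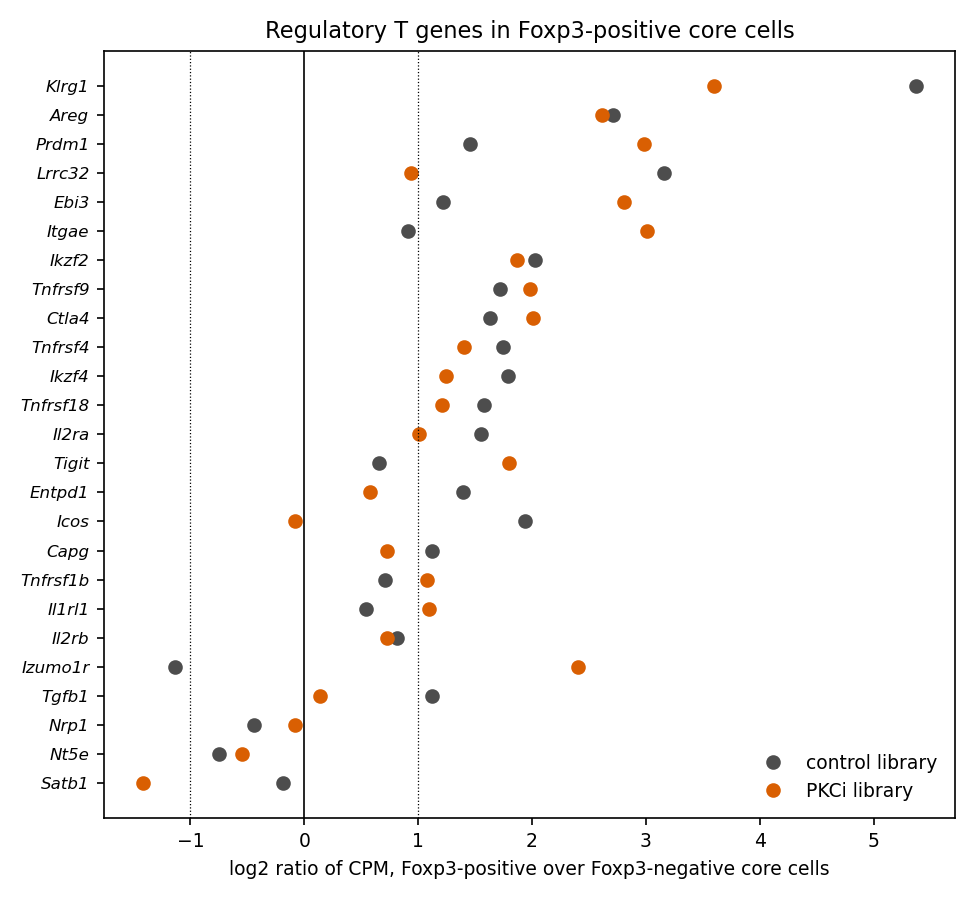
Log2 ratio of CPM (horizontal axis) between Foxp3-positive and Foxp3-negative core cells for each measured regulatory T gene, with 1 point per library; dotted lines mark a 2-fold difference. Ikzf2 lies at 2.03 and 1.87, and Icos lies at 1.94 in the control library and at -0.08 in the PKCi library.

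Icos, a costimulatory receptor, did not meet the count because the libraries differed. In the control library it stood at 1423 CPM in Foxp3-positive and 365 CPM in Foxp3-negative core cells, and in the PKCi library at 310 and 337 CPM. In Foxp3-positive cells these levels come from 171 UMIs in 20 of 21 cells and from 14 UMIs in 9 of 11.

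Against CD8 T cells of the same tumours, the CD8-negative core held more RNA of helper and regulatory genes and less of several cytotoxic genes. With 38 and 64 CD8-negative and 22 and 44 CD8 core cells, 228 of 4376 genes (5.21%) were higher and 107 (2.45%) lower in CD8-negative cells of both libraries. Cd4 had 28 UMIs against 2 in the control library and 47 against 1 in the PKCi library, and Foxp3 had 52 against 2 and 31 against 2. Of 26 regulatory T genes 11 were higher and none lower. Il1rl1, the IL-33 receptor ST2, had 16 UMIs against 0 in both libraries, and Lrrc32 (GARP), which displays latent TGF-beta, had 8 against 0 and 14 against 0. Ccr2, a chemokine receptor, had 58 against 5 and 20 against 1, and Maf, a factor of helper and regulatory subsets, 97 against 3 and 115 against 24.

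On the other side, 5 of 11 cytotoxic genes were lower in CD8-negative core cells (Klrd1, Klrk1, Nkg7, Prf1 and Ctsw) and none higher. Among all genes compared 2.45% were lower and 5.21% higher. Gzmf had 0 UMIs in CD8-negative against 305 in CD8 cells of the control library and 2 against 940 in the PKCi library, and Gzmd had 0 against 165 and 0 against 289. Prf1, perforin, had 2 against 64 and 23 against 167. Gzmb was not among the lower genes, at 824 CPM in CD8-negative and 767 CPM in CD8 core cells of the control library and at 316 and 724 CPM in the PKCi library. The inhibitory receptor PD-1 (Pdcd1) was at 98.3 CPM in CD8-negative and 223 CPM in CD8 core cells of the control library and at 72.9 and 293 CPM in the PKCi library. Of 12 interferon response genes 5 were higher in CD8-negative cells, beside 5.21% of all genes compared. Among the 5 was Ifit1, at 781 against 166 CPM in the control and 1402 against 160 CPM in the PKCi library.

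Over all members instead of the core, 39 of 4289 genes (0.909%) were higher and 35 (0.816%) lower than in CD8 T cells, and the higher ones were led by natural killer genes. Ncr1 had 76 UMIs against 0 in the control library and 37 against 0 in the PKCi library, and Tyrobp, used above to divide the members, 475 against 11 and 203 against 15. Gzma, at 1361 against 46 and 228 against 9, was among the higher genes over all members, while all 1361 control UMIs lay in the Tyrobp-bearing barcodes.

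Between treatments, the sums over all members were set largely by the barcodes outside the core. A gene was counted when it had at least 20 UMIs over both sums, 50 CPM in 1 of them and a UMI in at least 5 cells of the higher library, and differed at least 2-fold with an interval of the ratio that left out 1. These intervals treat UMIs as independent, which UMIs of 1 cell are not. Of 3792 genes, 91 (2.4%) were higher and 109 (2.87%) lower in the PKCi library, with a median log2 ratio of 0.05 over 9965 genes. Scaling by the median ratio in place of the total gave 67 higher and 128 lower, and the 200 genes became 89 when 2 CD3/TCR UMIs were enough and 356 without barcodes of at least 3 Krt8 UMIs. The granzyme genes led the lower group: Gzmf fell from 5115 to 23 UMIs, Gzmg from 4453 to 238, Gzme from 1962 to 264 and Gzma from 1361 to 228. The Tyrobp-bearing barcodes held 5113, 4449, 1962 and 1361 of the control UMIs, and 1 cell held 55.7% of those of Gzmf.

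The collagen gene Col1a1 (82 to 2 UMIs) and Igfbp7 (126 to 15) came from barcodes with Krt8, Rhox5 or Col3a1 UMIs, and 1 cell held 95.1% and 87.3% of the control UMIs. In the higher group Pls1 (7 to 51), Kitl (9 to 52), Hadh and Gchfr lay mostly in the same class of barcodes, and 85.2% of the Mctp1 UMIs of the PKCi library lay in 1 cell. Cxcr4, the receptor of CXCL12, was counted as higher both over all members and in the core, at 24.5 and 78.7 CPM over all members, a ratio of 3.21 (1.94 to 5.56), although with cells thinned to 3000 UMIs its log2 ratio was 0.94 and it was not counted. The cytotoxic list had opposite signs in the sums with and without these barcodes. Of its 10 genes tested, 2 were higher and 6 lower over all members with a median log2 ratio of -1.15, whereas in the core 3 of 8 tested were higher and 1 lower with a median of 1.14. The shares over all genes tested were 2.4% higher and 2.87% lower in all members and 4.72% and 3.54% in the core.

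In the core, 169 of 3584 genes (4.72%) were higher in the PKCi library and 127 (3.54%) lower, with a median log2 ratio of -0.01 over 5757 genes. Cxcr4 rose from 15 UMIs in 7 of 38 cells to 63 UMIs in 33 of 64, or from 81.9 to 255 CPM, a ratio of 3.12 (1.76 to 5.90). Tsc22d2 rose from 2 UMIs in 2 cells to 41 in 23, and Nebl from 1 UMI in 1 cell to 27 in 17. Rsad2, an antiviral interferon target, had 33 UMIs in 6 PKCi cells, of which 1 cell held 78.8%, and 1 cell held 82.6% of the 23 Prf1 UMIs and 92% of the 50 Mctp1 UMIs.

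Among the genes with the lowest ratios in the core were some found mainly in the Foxp3-positive cells of the control library. Gas2 fell from 32 UMIs to 1 and Npnt, an integrin ligand, from 29 to 0. In the control library 32 of the 32 Gas2 UMIs and 27 of the 29 Npnt UMIs lay in Foxp3-positive cells. Glrx, glutaredoxin, fell from 54 UMIs in 19 cells to 13 in 10, a ratio of 0.179 (0.0895 to 0.332). Gpr55 fell from 29 to 5, Penk, the enkephalin precursor, from 47 to 15, and Msrb3 from 24 to 3. For Penk 1 cell held 57.4% of the control UMIs and 1 cell 60% of the PKCi UMIs.

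Regulatory T genes were lower in the PKCi core. Of 26 tested, 10 were lower and 3 higher, beside 3.54% lower and 4.72% higher among all core genes tested. The median log2 ratio over 29 measured was -0.85. Over all members 4 of 16 tested were lower (Icos, Tnfrsf9, Areg and Klrg1) and none higher, with a median of -0.43, beside 2.87% of all genes lower. In the core Foxp3 fell from 284 to 126 CPM, a ratio of 0.443 (0.274 to 0.703). Ctla4 fell from 1332 to 539 CPM, a ratio of 0.405 (0.325 to 0.502), and Icos from 1059 to 332 CPM, a ratio of 0.314 (0.239 to 0.408). Areg fell to a ratio of 0.364 (0.284 to 0.464), Tnfrsf9 to 0.485 (0.402 to 0.583) and Klrg1 to 0.228 (0.109 to 0.445). Ikzf2, at 2314 and 1280 CPM, had a ratio of 0.553 (0.477 to 0.641), which did not reach 2-fold. The higher genes were Tgfb1, Nrp1 and Nt5e (CD73), with ratios of 2.27, 2.82 and 2.38.

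Within Foxp3-positive cells 1 regulatory T gene was lower. Between the 21 control and 11 PKCi cells, 47 of 1394 genes (3.37%) were higher and 45 (3.23%) lower, with a median log2 ratio of 0.04. None of the 17 regulatory T genes tested was higher, and the median over 26 measured was -0.07. Ikzf2 stood at 3130 and 3145 CPM, a ratio of 1.01 (0.823 to 1.22), Tnfrsf9 at 2114 and 1994 CPM, a ratio of 0.943 (0.733 to 1.20), and Ctla4 at 1740 and 1396 CPM, a ratio of 0.802 (0.595 to 1.07). For Ctla4, 1 deep PKCi cell held 39 UMIs, where the next highest held 7. In the control library 1 deep cell held 65, where the next highest held 30. The Ctla4 ratio without these cells was not tested. Foxp3 itself, which chose these cells, stood at 433 and 687 CPM. The lower gene was Icos, with 1423 and 310 CPM and a ratio of 0.218 (0.117 to 0.376).

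A few other genes differed within the Foxp3-positive cells. Ccr2 fell from 56 UMIs in 15 of 21 cells to 5 in 3 of 11, a ratio of 0.238 (0.0743 to 0.588), and Glrx from 408 to 177 CPM, a ratio of 0.434 (0.178 to 0.925). Ccl5, a chemokine of memory and effector cells, rose from 832 to 2525 CPM, a ratio of 3.03 (2.30 to 4.01). Prkch, which encodes PKC-eta, rose from 283 to 620 CPM, a ratio of 2.19 (1.28 to 3.72). Gas2 was at 266 CPM and 0 of 45144 UMIs, where a count of 0 allows up to 3.

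Within Foxp3-negative cells the median of the regulatory T list lay above 0. Between the 17 control and 53 PKCi cells, 110 of 2230 genes (4.93%) were higher and 35 (1.57%) lower, with a median of 0.05. Of 13 regulatory T genes tested, 1 (Tgfb1) was higher and none lower, with a median over 21 measured of 0.17, or 0.06 when the 2 genes at 0 in a library were set to their bound. Tcf7 fell from 270 to 99.2 CPM, a ratio of 0.368 (0.183 to 0.748), and Lef1, its partner factor, to a ratio of 0.488 (0.288 to 0.841). Ifng, the cytokine of type 1 cells, rose from 2 UMIs in 1 cell to 35 in 12, a ratio of 5.47 (1.41 to 47.0).

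Immediate early genes were higher in the PKCi core. Of 17 measured, 8 were higher and none lower, with a median log2 ratio of 0.86. Among all core genes tested 4.72% were higher and 3.54% lower. Fos rose from 18 UMIs in 8 cells to 103 in 34, or from 98.3 to 417 CPM, a ratio of 4.25 (2.56 to 7.45). Nr4a1, a nuclear receptor gene induced by antigen, rose from 164 to 409 CPM, a ratio of 2.5 (1.65 to 3.89), Fosb from 207 to 486 CPM, a ratio of 2.34 (1.62 to 3.47), and Dusp1, a MAP kinase phosphatase, from 218 to 450 CPM, a ratio of 2.06 (1.42 to 3.04). Egr1, with 4 and 28 UMIs, had a ratio of 5.20 (1.82 to 20.4). Heat shock genes, read from the same cells, had a median of 0.43, with 1 of 9 tested higher (Hsph1).

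Divided by Foxp3, the immediate early medians were 0.91 over 15 genes in Foxp3-positive and 0.25 over 17 genes in Foxp3-negative cells, with 3 higher and none lower among the 8 and the 15 tested. Of all genes tested, 3.37% were higher in Foxp3-positive and 4.93% in Foxp3-negative cells. Dusp1 was higher in both, with ratios of 2.66 (1.54 to 4.61) and 2.33 (1.24 to 4.85). Fos was higher in Foxp3-negative cells, where it rose from 79.3 to 466 CPM, a ratio of 5.88 (2.43 to 18.5), and its ratio in Foxp3-positive cells, from 13 and 9 UMIs, was 1.84 (0.695 to 4.66). Fosb was near level in Foxp3-negative cells, at 491 and 545 CPM. Over all members none of 16 immediate early genes tested was counted as different, and the median over 18 measured was 0.39.

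**Figure D5:**
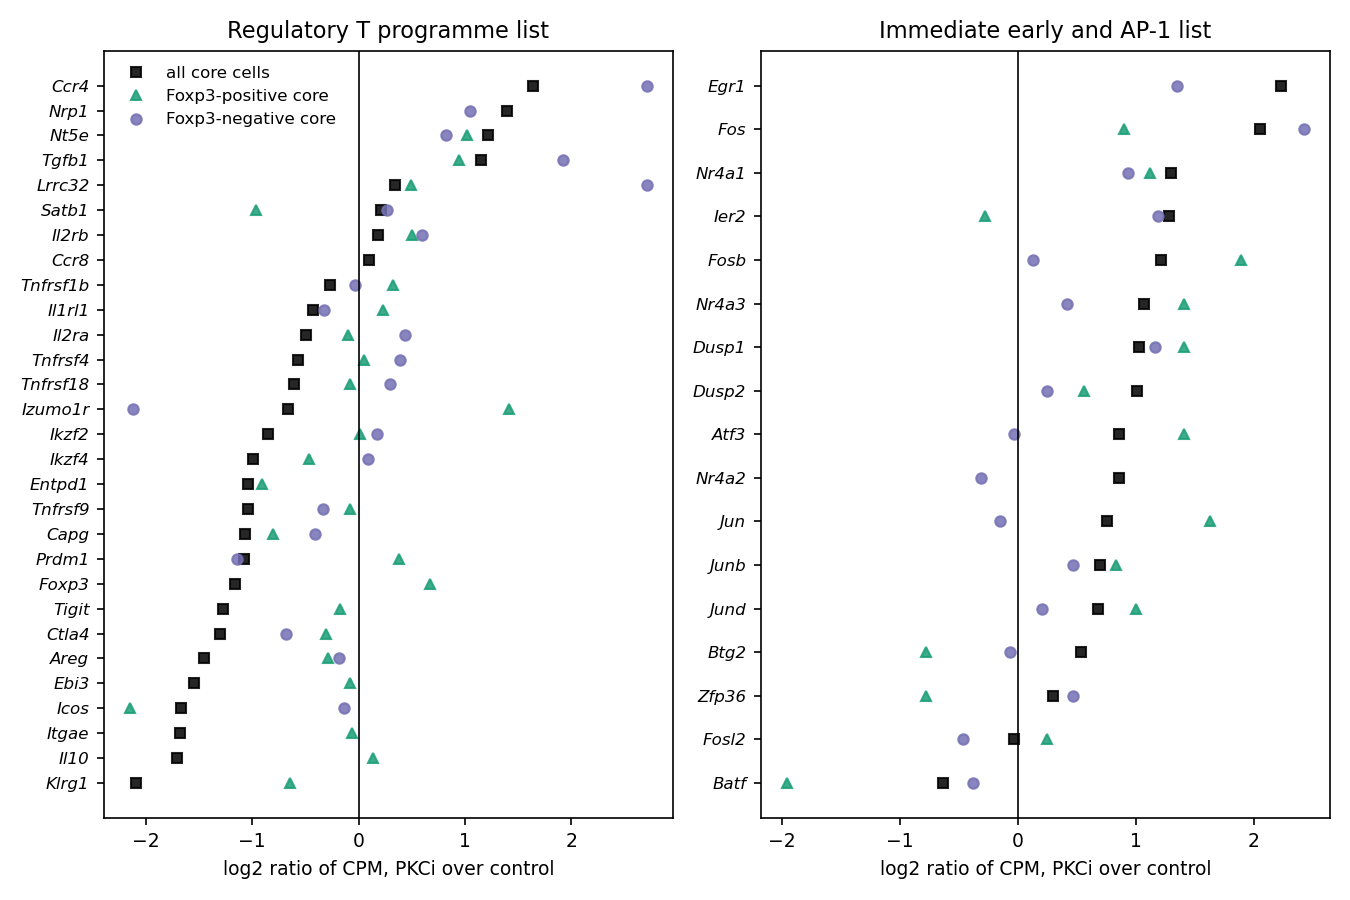
Log2 ratio of CPM, PKCi over control library (horizontal axis), for genes of the regulatory T list (left) and the immediate early list (right), in all core cells, in Foxp3-positive and in Foxp3-negative core cells. The regulatory T list has medians of -0.85, -0.07 and 0.17 in the 3 sets of cells and the immediate early list 0.86, 0.91 and 0.25.

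Genes of the pathway named by the title were measured at low counts. In the core Prkcq rose from 11 UMIs in 7 cells to 32 in 20, or from 60.04 to 130 CPM, a ratio of 2.16 (1.06 to 4.75), and it was the only one of 10 tested PKC and diacylglycerol genes counted as different. Among all core genes tested 4.72% were higher. In Foxp3-negative cells, where most of it lay, Prkcq stood at 159 and 154 CPM, a ratio of 0.970 (0.463 to 2.22). Rasgrp1 had 25 and 45 UMIs and a ratio of 1.34 (0.802 to 2.27). Xiap had 20 and 17 UMIs in 13 and 14 core cells, 109 and 68.9 CPM, and a ratio of 0.631 (0.310 to 1.27). For Rasgrp1 and Xiap the interval includes 1, so no difference was detectable at this depth.

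Further downstream, 2 of 14 NF-kB genes were higher in the core, Nfkbid among them, and none lower, with a median log2 ratio of 0.42. Among all core genes tested 4.72% were higher and 3.54% lower. None of 14 T cell receptor signalling genes tested and none of 7 NFAT and calcium genes differed, with medians of 0.10 and 0.19. These medians stand beside the median of -0.01 over all genes.

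Several other lists held called genes in the core, where 4.72% of all genes tested were higher and 3.54% lower. Of 9 naive and recirculating genes tested, S1pr1, the receptor for exit from tissue, rose to a ratio of 3.71 (1.62 to 9.90) and Foxp1 to 2.42 (1.5 to 4.05), with none lower and a median of 0.55 over 11 measured. In Foxp3-positive and Foxp3-negative cells taken apart, none of the 4 and the 8 tested was higher. The medians there were 0.10 and 0.17. Lef1 and Tcf7 were lower in Foxp3-negative cells, beside 1.57% of all genes tested there. Bcl2 rose from 175 to 365 CPM, a ratio of 2.09 (1.38 to 3.23), and stood at 491 and 446 CPM in Foxp3-negative cells. Of 12 chemokine receptor and migration genes tested 2 were higher (Cxcr4 and S1pr1) and 4 lower, among them Ccr2, Itgae and Itgb7. Of 10 hypoxia and glycolysis genes tested 2 were lower, the glycolytic enzyme gene Pkm at a ratio of 0.491 (0.383 to 0.626) and Ndrg1, with a median of -0.56. Divided by Foxp3, that list had medians of -0.17 in Foxp3-positive and 0.001 in Foxp3-negative cells, with none of 7 genes tested called in either. The 9 exhaustion and inhibitory receptor genes tested held 1 lower gene, Ctla4, and the list had a median of -0.76. None of the 9 proliferation genes that could be tested was counted as different. Gzmb fell from 824 to 316 CPM, a ratio of 0.383 (0.288 to 0.507). It was detected in 15 of 21 control and 5 of 11 PKCi Foxp3-positive cells. Among Foxp3-negative cells it was detected in 3 of 17 and 11 of 53. None of the 2 cytotoxic genes tested in Foxp3-positive and of the 6 in Foxp3-negative cells was called lower. Of all genes tested in these sets, 3.23% and 1.57% were lower.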

How the data were processed

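Per the file headers, the authors' deposited matrices are counts of UMIs per gene and barcode made with Cell Ranger 7.0.0, with 32285 genes in each; the submitters' processing notes also name GRCm38 and Seurat, and their use is not given in the sources used here. The number of barcodes and UMIs is given with the results. The members, gene lists, tests and alternatives were chosen with earlier results of these data known, and the division into a core and 2 other classes after the members' own values were seen.

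Counts were added up over the cells of a set and given per 1000000 UMIs of that set (CPM). Shares have exact Clopper-Pearson intervals, counts exact Poisson intervals and ratios exact conditional binomial intervals, at 95%; log2 ratios have 0.5 count added to each sum. A count of 0 was taken to allow up to 3 counts. Lists were described over genes with at least 10 UMIs over both sums. The myeloid gate had C1q or Lyz2 above the limits and under 3 CD3/TCR UMIs; the carcinoma gate had no Ptprc UMI and at least 3 Krt8 UMIs. The natural killer gate meant for background caught mostly carcinoma-like barcodes with Klra4. It was replaced by at least 3 UMIs summed over Ncr1, Klrb1c and Klre1, and is not used for results.

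Genes were named by rule: the markers given with the cells, the 12 highest and 12 lowest ratios in each comparison, called and most counted members of the lists, and Prkcq, Xiap and Rasgrp1. Left out of the ranked genes were mitochondrial, ribosomal, immunoglobulin, T cell receptor variable, sex-linked marker and unnamed genes, genes of the rule, and genes under 10% of their level in the myeloid or carcinoma gate. Gas2, Npnt, Icos and the cells that hold most UMIs of a gene were described after their values were seen, as were Maf, Ifit1, Pdcd1, Pkm, Sparc, Rora, Gata3 and the sum of 5 T cell genes outside the rule.

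Doublets were called with Scrublet in scanpy 1.11.5 and kept, with an alternative that leaves them out. The scripts used Python 3.11.15, numpy 2.4.6, scipy 1.17.1 and pandas 2.3.3, and the summing and calling were tested on simulated counts. Other settings numbered 15, and the core, CD3-bearing cells and the repeats within the core were added after seeing the data. Coordinates are from GENCODE M21. Some genes of the ranked genes and lists are not reported here.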

Additional observations from a re-analysis of the deposited data

How the results depend on the processing

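With 1 library per treatment no result has a replicate check. For the same reason no paired analysis was possible. The share results kept their direction and their side of 1 under every alternative except the Cd4 share ratio, which ran from 0.747 to 1.18 and was above 1 only when cells were thinned; the Foxp3 share ratio ran from 0.311 to 0.537. The 200 genes that differed between libraries over all members became 89 with at least 2 CD3/TCR UMIs and 356 without barcodes of at least 3 Krt8 UMIs. Scaling by the median ratio turned the split of 91 higher and 109 lower into 67 and 128. The 74 genes that differed from CD8 T cells became 335 in core cells, and the 340 between Foxp3-positive and Foxp3-negative cells 325. In log2, values that reversed were Zfyve9 at -0.91 with Scrublet calls left out and Gzma at 0.28 without barcodes with natural killer genes. In core cells Igfbp7 stood at 0.42, from 2 and 4 UMIs. No ratio was taken where both libraries held 3 UMIs or fewer, which left out 18 of the 24 named genes in core cells and 5 when thinned. The cause was not tested. In the core the 296 genes became 246 with the mean of per-cell CPM, 261 without the deepest cell of each library and 271 with at least 5 CD3/TCR UMIs, and the list medians ran from -0.91 to -0.81 for regulatory T and from 0.79 to 0.99 for immediate early genes. Depth limits detection: thinned to 3000 UMIs, the core's Il2ra shares moved from 47.4% and 37.5% to 20.7% and 29.7%, and its Foxp3 shares from 55.3% and 17.2% to 55.2% and 16.2%.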

Other observations

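Some interferon genes were higher in the Foxp3-negative core cells of the PKCi library. Of 9 type I interferon genes tested there, 3 were higher in the PKCi library (Rsad2, Ifit3 and Ifit1) and none lower, beside 4.93% of all genes tested that were higher, and the median log2 ratio over 14 measured was 0.88, or 0.85 with the 2 genes at 0 in a library set to their bound. Ifit3 had 1 UMI in the control library and 40 in the PKCi library in 9 cells. Rsad2 had 0 and 33, in 6 of 53 cells, and 1 cell held 78.8% of them. Over the whole core 2 of 12 tested were higher and 1 (Rtp4) lower, with a median of 0.03, and over all members none of 6 tested was counted as different. In Foxp3-positive cells none of 6 interferon genes tested was counted as different, and the median over 8 measured was 0.05. The difference between Foxp3-positive and Foxp3-negative cells was not tested.

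Factors of other helper subsets were present while their cytokines were rarely seen. Rora was detected in 34 of 38 control and 53 of 64 PKCi core cells, at 1239 and 1211 CPM, and Gata3 in 22 and 25, at 196.5 and 198.5 CPM. Il17a was detected in 0 and 1 core cells, Il13 in none of either and Cxcr5 in 1 and 1, while Ifng was found in 2 and 13. Mki67 was found in 5 and 7 core cells, and 1 cell in each library held 56% and 60% of its UMIs. By UMIs of at least 5 proliferation genes, 9 of 38 (23.7%) and 14 of 64 (21.9%) core cells were counted. Zbtb16, the factor PLZF of innate-like T cells, had 2 UMIs in the control core and 21 in the PKCi core.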
